A study of Homo sapiens with 8 samples.

Results

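FOXD3-AS1, SNHG5, TAF1D and ESRG are stem cell long noncoding RNAs and genes that host small nucleolar RNAs (snoRNAs). They were chosen by their presence in 2 deposited lists of candidate N4-acetylcytidine (ac4C) sites, by gene symbol, so that having a listed site is part of the choice and not a result. The 4 genes held 5 distinct sites, of 1851 distinct sites in 1506 genes over both lists. The list for NAT10 knockdown cells held 5 of them, all 4 genes, among 950 sites, and the wild-type (WT) list held 4, in 3 genes, among 1005.

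The sites came from the established human embryonic stem cell line H1. Sodium cyanoborohydride reduces ac4C, and the reduced base can be copied as if it were U, which leaves a C-to-T change in the reads. There were 8 libraries in 4 groups of 2: chemically treated mRNA and untreated input mRNA of NAT10 KD cells, and the same pair for WT cells. NAT10 KD cells had been exposed for 48 h to a lentivirus carrying GFP and an shRNA against NAT10, and GFP-positive cells were expanded in another medium with 0.5 µg/ml puromycin. The labels give no control shRNA for WT cells, and the knockdown therefore cannot be told apart from transduction, sorting, selection and medium. Each list gives 1 value per site, the authors' own score, whose formula the sources used here do not give. No read depth, conversion level or value per replicate was analysed, so no site carries an error, no test was made between genotypes, and the depth behind each site is unknown. The lowest score was 1.30173 in NAT10 KD and 1.30155 in WT, both just above 1.30103, the −log10 of 0.05. The score may therefore be a p-value written as −log10, and such a value moves with read depth as well as with acetylation. No source used here settles this. A base absent from a list may be acetylated below that limit.

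NAT10 is the acetyltransferase that makes ac4C in rRNA, tRNA and other RNAs. SnoRNAs are short nuclear RNAs that mostly guide chemical modification of rRNA: box C/D members (SNORD) guide ribose methylation and box H/ACA members (SNORA) guide pseudouridine formation. In human cells most of them are cut out of introns of a host transcript, whose spliced exons either encode a protein, as in TAF1D, or do not, as in SNHG5. TAF1D is a subunit of SL1, the factor that brings RNA polymerase I to the rRNA genes. FOXD3-AS1 is read from the strand opposite FOXD3, a transcription factor gene of pluripotent and neural crest cells, and ESRG is a long noncoding RNA abundant in human pluripotent cells that contains sequence of the HERVH family of endogenous retroviruses.

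The annotated classes fitted the label. RefSeq lists FOXD3-AS1, SNHG5 and ESRG as lncRNA, and TAF1D as protein coding with 8 snoRNA genes inside its span. FOXD3-AS1 and ESRG held 0 annotated snoRNA genes, so only SNHG5 and TAF1D are hosts by this annotation. No pseudogene was named after any of the 4 genes. The targeted gene itself, NAT10, had 0 listed sites in either genotype, which gives no measure of the knockdown. Of 17 pluripotency genes, 9 (52.9%) had a site in NAT10 KD, ESRG included, and 7 (41.2%) in WT. At a score of at least 2 these counts were only 2 and 4. Of 18 genes taken as markers of other cell types, 2 (11.1%, THY1 and TUBB3) had a site in NAT10 KD. In WT 3 did (16.7%, KRT8, VIM and THY1). At a score of at least 2 each list kept 1 of them. Of all 20056 RefSeq protein-coding genes, expressed in H1 cells or not, 3.98% had a site in NAT10 KD and 4.22% in WT. Expression levels were not analysed here, so it is not known which of the marker genes H1 cells express. These counts and shares therefore do not measure the cells' identity.

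The annotated starts of 3 of the genes are shown first, because distances to the listed sites run from them. They come from the RefSeq promoter table (GRCh38.p14, the assembly also called hg38) and are written 5′ to 3′ on the minus strand, the strand of all 5 member sites. For SNHG5 the window is chr6:85678684-85678983, with the first 50 transcribed bases in capitals. For FOXD3-AS1 it is chr1:63322409-63322566, which holds the 108 bases between the FOXD3 and FOXD3-AS1 starts and, in capitals, the first 50 bases of FOXD3-AS1. For TAF1D it is chr11:93741496-93741671, the 176 bases that separate its start from that of C11orf54, which runs the other way.
SNHG5: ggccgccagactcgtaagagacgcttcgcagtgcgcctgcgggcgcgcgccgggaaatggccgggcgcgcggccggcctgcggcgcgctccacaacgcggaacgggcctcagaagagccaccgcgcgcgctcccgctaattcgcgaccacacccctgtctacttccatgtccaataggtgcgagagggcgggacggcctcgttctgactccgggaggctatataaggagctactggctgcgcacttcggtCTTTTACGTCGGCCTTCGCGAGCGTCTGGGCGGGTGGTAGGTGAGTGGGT
FOXD3-AS1: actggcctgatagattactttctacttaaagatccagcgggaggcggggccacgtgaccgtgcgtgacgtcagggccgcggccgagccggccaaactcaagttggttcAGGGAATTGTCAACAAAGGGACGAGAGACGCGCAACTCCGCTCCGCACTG
TAF1D: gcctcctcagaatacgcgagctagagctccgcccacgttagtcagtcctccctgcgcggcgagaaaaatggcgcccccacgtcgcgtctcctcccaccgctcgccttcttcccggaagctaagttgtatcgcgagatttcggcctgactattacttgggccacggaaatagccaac
None of the 5 member sites lay in these windows. The sequence around the member sites was not read here. Of all listed sites, promoter windows covered 49 in NAT10 KD and 55 in WT. The base on the site's strand was a C at 49 and 55 of them. The method reads C-to-T changes, so this checks the coordinates and is not a result about the sites.

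FOXD3-AS1 carried 1 site, at the same base in both genotypes (chromosome 1, position 63321421, minus strand). Its deposited score was 26.2 in the NAT10 KD list and 29.4 in the WT list. It ranked 7 of 950 in NAT10 KD and 9 of 1005 in WT, so 99.3% and 99.1% of the sites in those lists scored lower. Its neighbours by score in NAT10 KD were sites in HNRNPD, an RNA-binding protein (26.3), and BTF3, a nascent-chain complex subunit (25.8). In WT they were sites in PRDX5, an antioxidant enzyme (29.9), and FBL, the box C/D methyltransferase (28.4). The site lay 1037 bases downstream of the start shown above and 537 bases from the 3′ end of the annotated span. The span of FOXD3-AS1 overlaps that of FOXD3 by 1875 bases, since the span reaches further upstream than this start, but the site fell outside FOXD3. FOXD3 itself had 0 sites in either list.

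SNHG5 is a noncoding host whose introns carry the box C/D snoRNAs SNORD50A and SNORD50B. It too had 1 site, at the same base in both genotypes (chromosome 6, position 85678151, minus strand). The deposited score was 5.64 in NAT10 KD and 12.9 in WT. The rank was 38 of 950 in NAT10 KD and 17 of 1005 in WT. In NAT10 KD it stood between sites in the spectrin gene SPTBN1 (5.64) and the mitochondrial ribosomal protein gene MRPL37 (5.53), and in WT between the mitochondrial rRNA MT-RNR1 (18.8) and the growth factor gene MDK (11.8). The site was 582 bases from the annotated start of a span of 1727 bases, upstream of both snoRNAs. The nearer snoRNA gene, SNORD50B, was 492 bases downstream of it and SNORD50A 783 bases downstream.

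TAF1D had 2 sites, and both were in both lists. The upstream site (chromosome 11, position 93738252, minus strand) lay 3243 bases from the annotated start and 3016 bases before the first of the nested snoRNAs, SNORA40. Its deposited score was 16.3 in NAT10 KD, rank 16 of 950, and 7.40 in WT, rank 31 of 1005. Sites in MDK (16.5) and FBL (14.5) stood next to it in NAT10 KD, and sites in CYB5B (7.54) and STMN1 (7.39) in WT.

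The downstream TAF1D site (position 93732275) was near the bottom of both lists. It scored 1.40 in NAT10 KD, rank 781, and 1.46 in WT, rank 763, so 17.8% and 24.1% of sites scored lower. It lay 5977 bases downstream of the upstream site, inside the snoRNA cluster. The SNORA8 gene was 86 bases away on its 5′ side and the SNORA1 gene 142 bases away on its 3′ side. Neither it nor any other of the 950 NAT10 KD or 1005 WT sites lay inside an annotated snoRNA gene. The libraries were made from captured mRNA and depth over snoRNA genes was not analysed, so nothing about snoRNAs is read from this. Exon and intron boundaries were not used here, so whether the base at 93732275 is in the spliced TAF1D mRNA was not tested. The sites next to it by score in NAT10 KD were in MTA1 (1.40) and ARL1 (1.40).

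ESRG was listed in NAT10 KD only (chromosome 3, position 54633715, minus strand). The deposited score was 1.99, rank 307 of 950, with 67.7% of sites lower, and WT had 0 ESRG sites. PRPF8 and XRCC2 held the sites next to it, both also at 1.99 and in NAT10 KD only. The nearest listed site to it was in SELENOK, 741944 bases away, in both lists. ESRG lies wholly within the span of CACNA2D3, which is on the plus strand and had 0 sites in either list. Being in 1 list only does not show that the genotypes differ at ESRG.

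**Figure D1:**
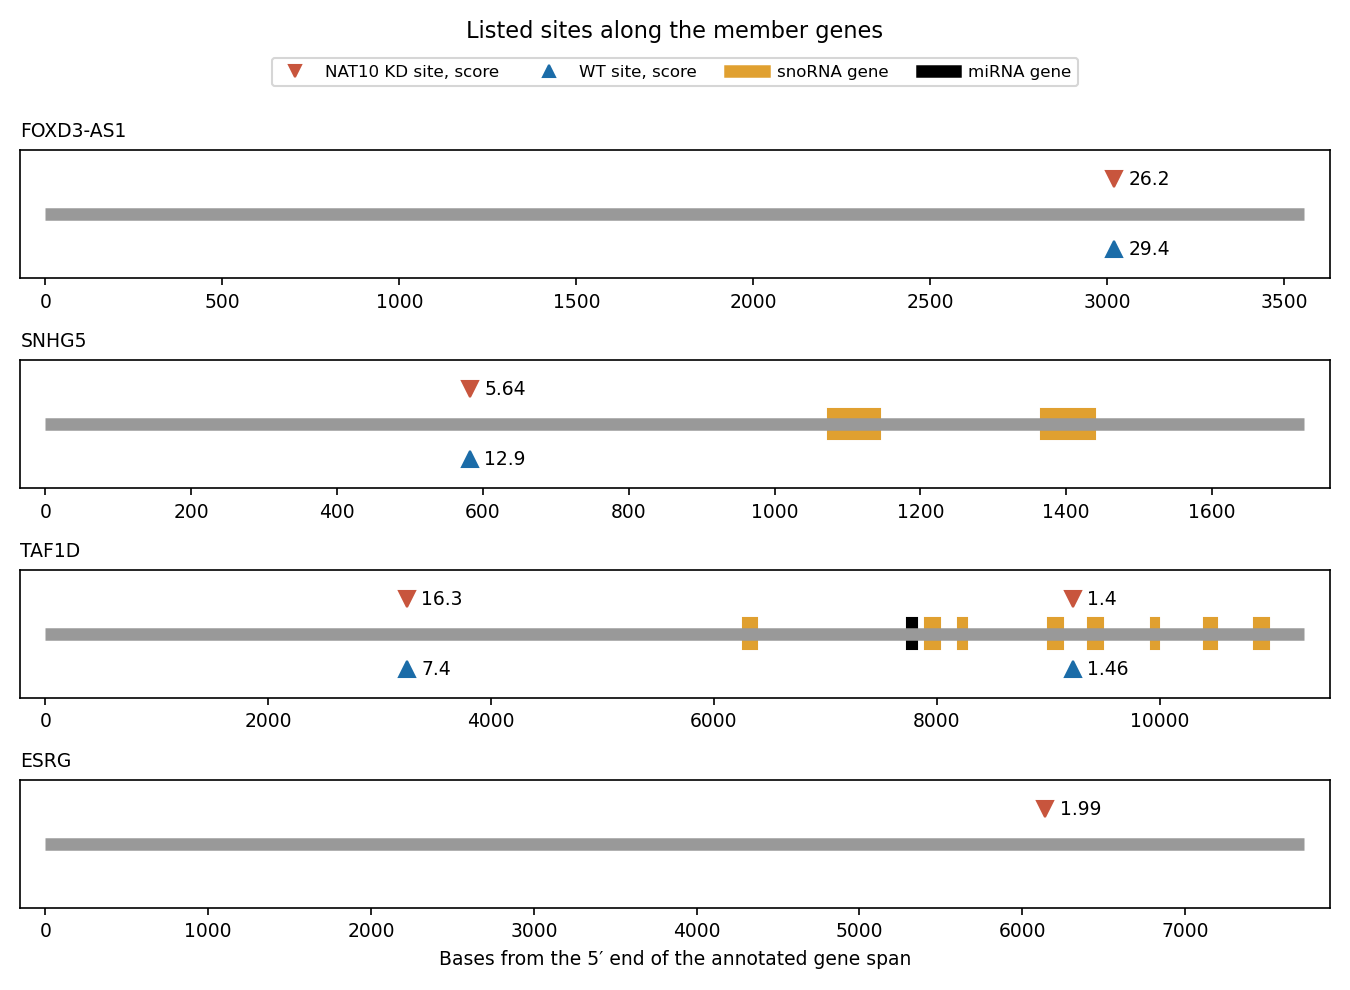
Listed sites along the 4 genes, in bases from the 5′ end of the annotated span. NAT10 KD sites are above each gene bar and WT sites below it, each with its deposited score, and the boxes mark nested snoRNA genes and the miRNA gene MIR1304. SNHG5 and the upstream TAF1D site lie before the snoRNAs, and the downstream TAF1D site lies between SNORA8 and SNORA1.

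**Figure D2:**
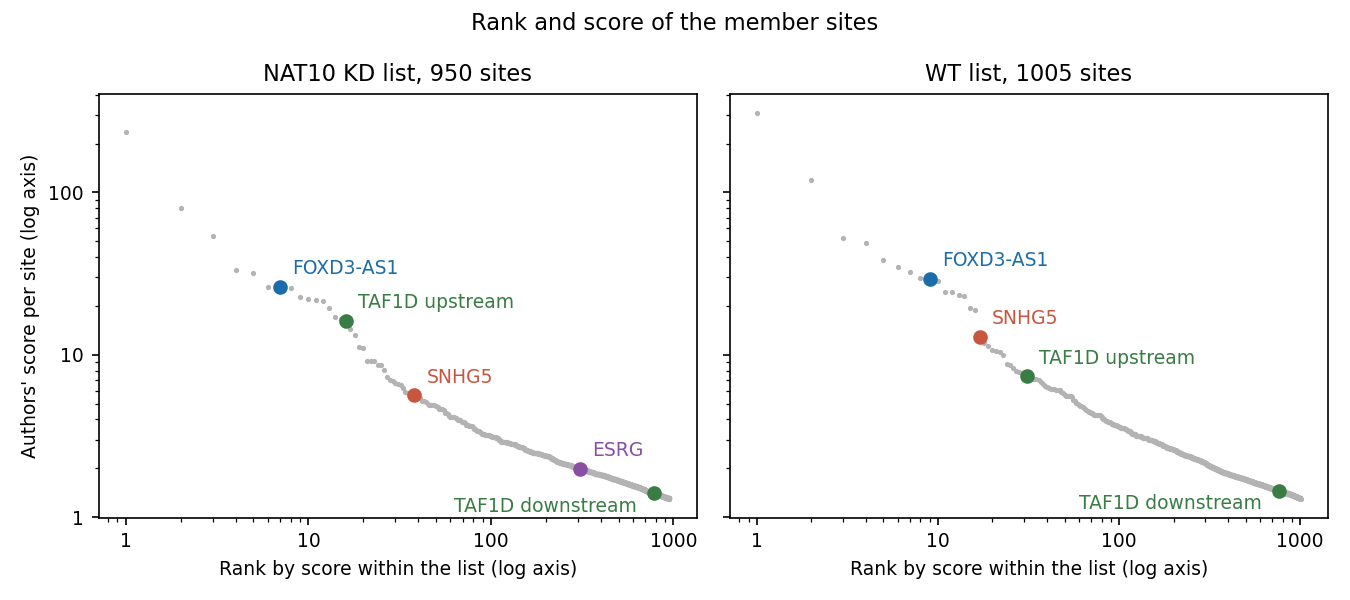
Deposited score of every site against its rank within its list, NAT10 KD on the left and WT on the right, both axes logarithmic. Coloured points are the member sites: FOXD3-AS1 stands at rank 7 and 9, and the downstream TAF1D site at rank 781 and 763.

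Of the 5 NAT10 KD sites of the 4 genes, 4 were also in WT, and all 4 WT sites were also in NAT10 KD. Over all sites the share found in the other list was 10.9% in NAT10 KD and 10.3% in WT. By gene, 3 of the 4 were in both lists, beside 14.7% of all 1506 listed genes. The genes were picked with these listings known, so nothing is read from the difference. Sharing also went with score. Among sites that scored at least 5, 54.5% of 44 in NAT10 KD and 44.8% of 58 in WT were in both lists, and FOXD3-AS1, SNHG5 and the upstream TAF1D site belong to that range. Among sites that scored under 2, the shares were 5.72% of 647 and 4.20% of 666. The downstream TAF1D site was in that range and in both lists, and ESRG was in it and in NAT10 KD only.

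TAF1D was among the few genes with several sites that were all in both lists. There were 5 such genes of 94 with several sites in NAT10 KD (5.32%) and 4 of 103 in WT (3.88%). Beside TAF1D, MLF2, ACTR3 and RPL23AP42, a ribosomal protein pseudogene, met this in both genotypes, and PTS in NAT10 KD. These genes were picked out once their values had been seen.

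The 4 shared sites did not move one way. The score was higher in NAT10 KD at 1 of them, the upstream TAF1D site, where 38 of all 104 shared sites (36.5%) were higher. It was lower in NAT10 KD at 3, where 66 of 104 (63.5%) were lower. The upstream TAF1D site had a difference, NAT10 KD minus WT, of 8.86 score units, place 2 among the 104 from the top. SNHG5 had a difference of -7.25, place 8 from the bottom, and FOXD3-AS1 of -3.23, place 13 from the bottom. The downstream TAF1D site had -0.05. The median over the 104 shared sites was -0.24, with a median score of 2.54 in NAT10 KD and 2.76 in WT. High-scoring sites can differ by more score units, and FOXD3-AS1, SNHG5 and the upstream TAF1D site all scored above these medians. Whether their places among the differences follow from score level was not tested.

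Ranks gave another order for part of them. Among the 104 shared sites, FOXD3-AS1 was 6 from the top in NAT10 KD and 7 in WT, although its score was lower in NAT10 KD. The downstream TAF1D site was 97 in NAT10 KD and 103 in WT, again with the lower score in NAT10 KD. The upstream TAF1D site (11 in NAT10 KD and 18 in WT) and SNHG5 (21 in NAT10 KD and 12 in WT) kept their directions. Neither read depth nor the amount of each transcript was analysed, so the score differences cannot be read as changes in acetylation level. Whether acetylation changed at these sites was not tested.

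**Figure D3:**
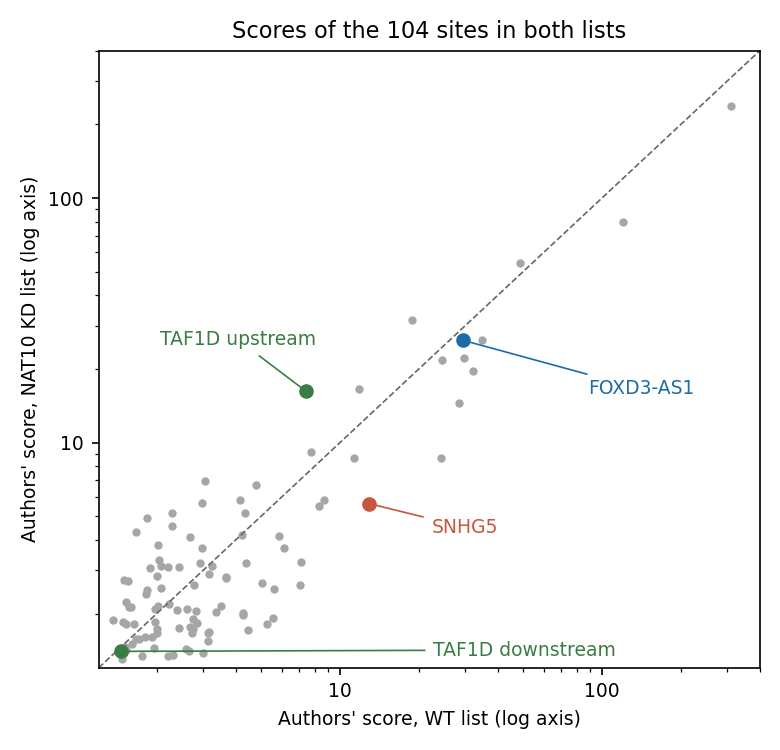
Deposited scores of the 104 sites in both lists, NAT10 KD on the vertical and WT on the horizontal axis, both logarithmic, with the dashed line at equal scores. The upstream TAF1D site (16.3 in NAT10 KD and 7.40 in WT) lies above the line and SNHG5 (5.64 and 12.9) below it.

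Other snoRNA hosts were listed in small numbers. Of 29 noncoding host genes, 3 had a site in NAT10 KD and 3 in WT (10.3% each), and SNHG5, chosen for its listing, was the only one in both. Of all 18330 RefSeq lncRNA genes, 0.0873% were listed in NAT10 KD and 0.0818% in WT, and of all 20056 protein-coding genes, 3.98% and 4.22%. Those totals include genes that H1 cells do not express, and expression was not analysed, so nothing particular to any of the gene lists is read from these shares. SNHG30 scored 2.70 and SNHG19 1.36 in NAT10 KD. SNHG15 scored 2.44 in WT, and SNHG14, the long imprinted transcript that carries snoRNA clusters, had WT sites at 2.06 and 1.72. The SNHG19 site lay 43 bases from SNORD60. SNHG5 led these hosts in both lists, at 5.64 in NAT10 KD and 12.9 in WT.

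Of 60 protein-coding host genes, 5 were listed in NAT10 KD and 5 in WT (8.33% each). TAF1D, chosen for its listing, was the only one of these 60 in both. In NAT10 KD the highest were RPS20, a protein of the small ribosomal subunit (21.5), TAF1D (16.3) and RPL13A, of the large subunit (3.38). In WT they were TAF1D (7.40), the chaperone gene HSPA8 (4.07) and the laminin receptor and ribosomal protein gene RPSA (1.69). The others were NOP56 and WDR43 in NAT10 KD and EIF4A2 and TSR1 in WT, named here to complete the counts.

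Taken from the annotation instead, genes whose span holds a snoRNA gene numbered 44 in NAT10 KD, with 49 sites, and 41 in WT, with 47 sites. Of these sites 7 were in both lists, or 14.3% of the NAT10 KD ones and 14.9% of the WT ones. Over all sites the shares were 10.9% and 10.3%. The SNHG5 site and both TAF1D sites, chosen with their listings known, are among the 7, so nothing is read from the difference. The other shared sites were in HMGN1, PCNA, SF3B1 and TIMM23. In HMGN1, PCNA and SF3B1 the only snoRNA gene in the span has a LOC identifier and no SNORD or SNORA name. The same holds for others, such as KAT6A in NAT10 KD and NAV2 in WT. These counts are therefore not of named snoRNA hosts alone. CCAR1, EIF4G2, GTF3C6, PRRC2B and TMX1 were in both lists at different bases. The distance to the nearest snoRNA had a median of 11574 bases in NAT10 KD and 4652 bases in WT, and 6 NAT10 KD and 7 WT sites lay within 500 bases. SNHG5, at 492 bases, and the downstream TAF1D site, at 86, were in that range in both. The strand of the snoRNA genes was not compared with that of the hosts.

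SL1 and the RNA polymerase I machinery, the pathway of the TAF1D protein, gave 1 listed gene of 21 in NAT10 KD and 3 in WT. They were 4.76% and 14.3% of the list. TAF1D, chosen for its listing, was the only one in NAT10 KD. In WT the rDNA factor UBTF scored 3.54 and 1.79 and the polymerase subunit gene POLR1H 1.54. The other SL1 subunit genes, TBP, TAF1A, TAF1B and TAF1C, had 0 sites in both lists.

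Among 18 long noncoding RNAs known from embryonic stem cells or their early derivatives, 3 were listed in NAT10 KD (16.7%) and 2 in WT (11.1%), and FOXD3-AS1 was the only one in both. FOXD3-AS1 and ESRG are in that count because they were chosen for their listing. MIR302CHG, the host of the miR-302 cluster of pluripotent cells, scored 6.57 in NAT10 KD (chromosome 4, position 112648660), between FOXD3-AS1 at 26.2 and ESRG at 1.99. MIAT scored 1.46 in WT. HPAT5, a transcript associated with human pluripotency that was not on this list, scored 1.54 in NAT10 KD and was named after its value was seen. Of 17 other abundant noncoding RNAs, 1 was listed in each genotype: MALAT1 in NAT10 KD (1.97) and CHASERR in WT (3.16).

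By annotation, lncRNA genes held 16 sites in 16 genes in NAT10 KD and 18 sites in 15 genes in WT, or 1.71% and 1.81% of the sites matched to RefSeq. FOXD3-AS1 had the highest score of them in both lists. SNHG5 came next after MIR302CHG in NAT10 KD and next after FOXD3-AS1 in WT. Only FOXD3-AS1 and SNHG5 had a site at the same base in both lists, while FGD5-AS1 and MAP3K2-DT were in both at different bases. The annotated class also includes RNASEK-C17orf49 in NAT10 KD (1.93) and RAB4B-EGLN2 in WT (1.40). Their symbols join names of other genes, and whether these sites lie in a lncRNA was not tested. The median lncRNA score was 1.92 in NAT10 KD and 1.98 in WT, against 1.72 and 1.70 over all sites. These few lncRNA sites include FOXD3-AS1, SNHG5 and, in NAT10 KD, ESRG, chosen with their listings known. Nothing is read from the difference.

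**Figure D4:**
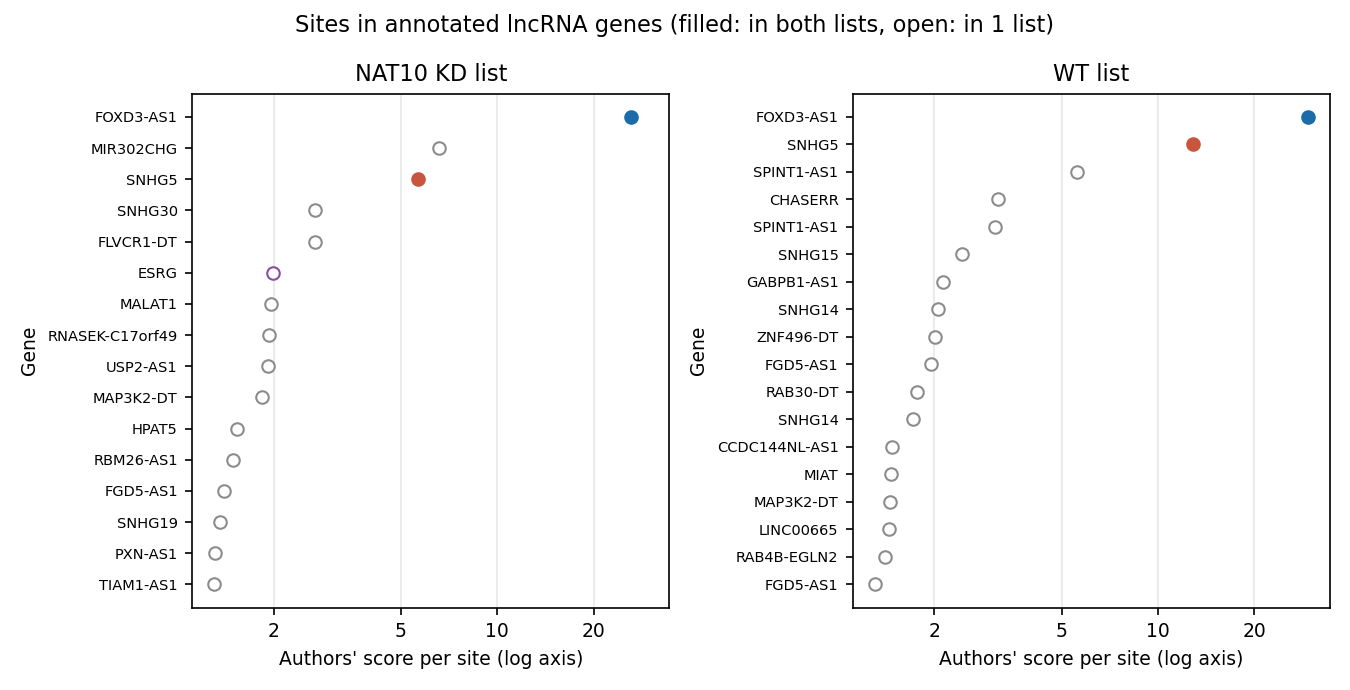
Deposited scores of all sites in annotated lncRNA genes, NAT10 KD on the left and WT on the right, on a logarithmic axis. Filled points are in both lists and open points in 1 list: the filled ones are FOXD3-AS1 (26.2 in NAT10 KD and 29.4 in WT) and SNHG5 (5.64 and 12.9).

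Some sites of these related noncoding genes fell in a promoter window, so the bases around them could be read. They are shown because they are the nearest view of sequence at a listed site in a noncoding transcript, as 21 bases on the site's strand with the listed base in capitals. The NAT10 KD sites are in SNHG30 (chr17:35568143-35568163, plus strand) and MIR302CHG (chr4:112648654-112648674, minus strand). SPINT1-AS1, chosen after its values were seen, had adjacent WT sites that scored 5.57 and 3.10 (chr15:40844308-40844328 and chr15:40844309-40844329, minus strand).
SNHG30: agctggaagcacctttggccC
MIR302CHG: tttgggaactagttCaggaag
SPINT1-AS1, higher score: acccggcagcCagacagacgg
SPINT1-AS1, lower score: gacccggcagCcagacagacg
The listed base was a C in each, and the SPINT1-AS1 pair are neighbouring Cs. NAT10 is known to favour CCG. A CCG with the listed base in its middle was found at 6 of 48 NAT10 KD and 5 of 54 WT sites with both neighbours in a window, or 12.5% and 9.26%, where 6.98% of all Cs in the windows of the table have that context. GCG was the more frequent context, at 13 of the 48 NAT10 KD and 15 of the 54 WT sites, or 27.1% and 27.8%, where 7.95% of all window Cs have it. The compared Cs were all those of the 35116 windows, read on the window strand, with 250 bases before each start and 50 after. Listed sites come from RNA and were read on their own strand. The sets are therefore unlike, and no sequence preference is read from these shares. Promoter windows hold few of the listed sites, and no member site is among them.

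Along their genes, the member sites covered much of the span. SNHG5 lay 33.7% and the upstream TAF1D site 28.7% of the way from the 5′ end, ESRG 79.4%, the downstream TAF1D site 81.6% and FOXD3-AS1 84.9%. The median over all sites inside their gene was 62.6% in NAT10 KD (quartiles 20.1 and 86.7) and 56.9% in WT (15.5 and 84.5). All 5 member sites lay between those quartiles except FOXD3-AS1 in WT, which was just above the upper one. Measured from the start shown above in place of the span's 5′ end, FOXD3-AS1 lay 65.9% of the way along, inside both ranges.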

How the data were processed

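The 8 libraries were made from mRNA captured from 30 µg total RNA, reduced at 25 °C for 20 min or kept as input, with a molecular identifier of 8 bases, per the labels' protocols. Per the submitters' processing notes, fastp 0.21.1, STAR 2.7.8a, SAMtools 1.12 and the build hg38 were used. The notes name no site caller, filter, use of the input or pooling of replicates, which were not given in the sources used here. For each genotype the authors deposited 1 list of sites with a score per site. The score was used to describe and rank sites within its list, and for sites in both lists the pair of scores is given.

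Positions are 1-based ends. A site counted as shared where chromosome, position and strand were identical. Symbols were matched to the RefSeq gene table (GRCh38.p14), which gave spans, classes and nested snoRNAs for 935 NAT10 KD and 993 WT sites. The members and gene lists were chosen with earlier results of these data known. Named genes were the members, their neighbours by score (those of 1 site in WT are not reported here), all listed genes of the noncoding and polymerase I lists, and the top 3 protein-coding hosts per list. Overlap counting, ranking and base complementing were tried on simulated lists. That trial was separate from the steps that gave the results and does not check them. Python 3.11.15, pandas 2.3.3, NumPy 2.4.6, SciPy 1.17.1 and matplotlib 3.10.9 were used. No test was made, because the lists hold no replicate values.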

Additional observations from a re-analysis of the deposited data

How the results depend on the processing

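A minimum score of 2, or of 5, left 3 of the 5 NAT10 KD sites of the 4 genes and 3 of the 4 WT sites: the downstream TAF1D site and ESRG drop out. Sites within 10 bp, or matching by gene, left the number of the 4 genes shared between lists at 3. At a score of at least 2, protein-coding hosts numbered 4 genes in NAT10 KD and 2 in WT, stem cell long noncoding RNAs 2 and 1, other abundant noncoding RNAs 0 and 1, and annotated lncRNA genes 5 and 8. Noncoding hosts numbered 2 and 3. The same minimum was tried on further lists after the data had been seen. It left 2 and 4 pluripotency genes, and 1 and 1 of the genes taken as markers of other cell types. For SL1 and RNA polymerase I it left 1 and 2 genes. Ranks among shared sites, as WT rank minus NAT10 KD rank, turned the direction of FOXD3-AS1 (1 place) and the downstream TAF1D site (6 places); the cause was not tested. Without genes that have a pseudogene named after them, no member's percentile moved by more than 3.22 points. Counting sites in place of genes changed no count of hosts, stem cell or other abundant noncoding RNAs, or annotated lncRNA genes by over 1.5 times. The SL1 and RNA polymerase I list held 2 sites in 1 gene in NAT10 KD and 5 sites in 3 genes in WT. No paired analysis was possible because the lists hold no values per replicate, and leaving out replicates was not run for the same reason. The depth behind each score is unknown, and the downstream TAF1D site lies near the lists' lower limit.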
